A study of Mus musculus with 656 samples.

Results

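The genes that build cholesterol and fatty acids, together with the genes that regulate them, were described in mouse 3T3 fibroblasts that were given SC-514, which inhibits the kinase IKKβ, and then a cytokine. The set was defined by gene symbol and holds 32 genes of the 22070 in the deposited count table: 6 of the sterol-sensing machinery, 7 of the mevalonate and isoprenoid steps, 11 of the steps from squalene to cholesterol and 8 of fatty acid synthesis and desaturation. All 32 were among the 10766 genes with enough counts to be tested. 3T3 is an established fibroblast line derived from mouse embryos, and IKKβ is the kinase that marks the inhibitor of NF-κB for destruction when IL-1β or TNF-α binds its receptor.

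Cells were grown in medium with calf serum. They were held for 1 hour with SC-514 at 0, 25, 50 or 100 µM and then stimulated with IL-1β (1 ng/ml) or with TNF-α (10 ng/ml). RNA was taken 15, 30, 60, 120 or 360 min later. These 40 combinations and 1 group without stimulus or inhibitor make 41 groups of 4 libraries each, 164 in all, read by TagSeq, which sequences the 3' ends of polyadenylated transcripts. The series addressed what blocking IKKβ does to NF-κB transcription under either stimulus.

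The 656 sample records are 4 records for each library, and the library was the unit of every test. Whether a group's 4 libraries were made from separate cultures is not in the labels. The p-values therefore rest on the spread of these libraries alone, which may be technical. No group received the inhibitor without a stimulus, and the vehicle of the 0 µM groups is not given in the sources used here. The group without stimulus is labelled 0 min, and there is no such group at the later times. In comparisons against it, stimulus and time in culture cannot be told apart. The labels conflict in that a column prefix belongs to the other stimulus in the sample titles than in the descriptions. Here the description and the stimulus label decide, the groups are named by that label, and stimulus and library set cannot be told apart. In bulk libraries, fewer cells that make a transcript and less of it per cell cannot be told apart either.

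Cells make cholesterol from acetyl-CoA through mevalonate, the isoprenoid farnesyl diphosphate, squalene and lanosterol, and they make fatty acids from the same acetyl-CoA. The transcription factors SREBP2 and SREBP1, encoded by Srebf2 and Srebf1, switch on most genes of these routes. They are held in the endoplasmic reticulum by SCAP and the INSIG proteins when sterols are plentiful, and are carried by SCAP to the Golgi, cut and released to the nucleus when sterols are scarce. Fibroblasts in culture run these routes to supply their membranes, and growth in serum, which brings lipoprotein cholesterol, keeps them partly repressed.

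Promoter stretches are shown for 4 of the genes with the fall described below. The fall alone did not decide which genes are shown, and each stretch holds at least 1 motif match. NF-Y boxes and E-boxes stand beside sterol response elements in many SREBP targets. The stretches are RefSeq sequence on GRCm38.p6, 5' to 3' on the gene's strand. Capitals mark matches to 3 motifs searched on both strands: the sterol regulatory element core TCACNCCAC, the NF-Y box CCAAT and the E-box CACGTG. An NF-Y box that lies on the opposite strand reads ATTGG here. The Hmgcs1 stretch is chr13:119690102-119690322 (plus strand), with the element core 137 bases and NF-Y boxes 237, 176 and 45 bases before the start of transcription. The Hsd17b7 stretch is chr1:169969262-169969382 (minus strand), with NF-Y boxes at 165 and 73 and an E-box at 143 bases before the start. Fasn is shown over chr11:120824590-120824649 (minus strand), where 3 NF-Y matches lie 90, 62 and 59 bases before the start and the last 2 overlap. Insig1 is shown over chr5:28071184-28071328 (plus strand), with an NF-Y box 216 and an E-box 101 bases before the start. Insig1 was also called higher with the inhibitor at earlier times under IL-1β. Idi1 and Cyp51 share the fall as well but are not shown. Their NF-Y boxes lie 45 and 14 bases (Idi1) and 29 bases (Cyp51) before the start.
Hmgcs1: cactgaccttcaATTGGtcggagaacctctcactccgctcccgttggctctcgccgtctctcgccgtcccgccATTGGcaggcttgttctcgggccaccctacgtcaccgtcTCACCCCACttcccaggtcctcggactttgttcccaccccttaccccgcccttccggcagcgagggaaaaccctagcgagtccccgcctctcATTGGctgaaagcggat
Hsd17b7: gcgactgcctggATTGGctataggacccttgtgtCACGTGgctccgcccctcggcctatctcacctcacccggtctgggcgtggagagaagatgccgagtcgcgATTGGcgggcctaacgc
Fasn: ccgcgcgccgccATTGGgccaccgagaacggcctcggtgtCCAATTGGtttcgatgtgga
Insig1: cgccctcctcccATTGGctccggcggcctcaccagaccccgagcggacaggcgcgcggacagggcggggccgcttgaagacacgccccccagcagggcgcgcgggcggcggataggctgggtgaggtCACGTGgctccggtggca

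Promoter windows of 300 bases, 250 before and 50 after the start, were found for 25 of the 32 genes, and the other 7 have no entry in the table used. At least 1 NF-Y box was present in 20 of the 25 (80.0%), against 41.1% of the 27025 genes in the table. The E-box was present in 5 of 25 (20.0%: Scap, Insig1, Hsd17b7, Sc5d and Dhcr7), against 8.1% of all genes. The element core was present in 1 of 25 (4.0%, Hmgcs1), against 1.4%. These are matches of letters in a window and not evidence of binding.

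Levels below are CPM, counts relative to library size after scaling by the trimmed mean of M-values (TMM), given per library in the order of library numbers 1 to 4, and n is 4 libraries in each group. Library totals were 928906 to 2469454 counts (median 1282459) except for 12191 in number 1 of 50 µM at 30 min labelled IL-1β and 3839 in number 1 of 50 µM at 120 min labelled TNF-α. A count of 3 corresponded to 1.21 to 3.23 CPM in the other 162 libraries, a limit that covers counting error only. Levels are not compared between genes. All 10 fibroblast markers listed were detected (summed level 9960 to 10500 CPM in the unstimulated libraries), while markers of other cell types were partly present. Over all libraries the adipocyte markers Adipoq and Lep had a median of 0, but Lpl had 142, Pparg 6.3, Cebpa 4.16, Plin1 2.93 (up to 18.3) and Fabp4 1.9 CPM. Of the macrophage markers Adgre1 had a median of 0, Ptprc and Itgam were below the floor, and Cd14 had 11.6, Cd68 4.34 and Csf1r 2.8 CPM. The epithelial markers Epcam, Krt8 and Cdh1 and the endothelial markers Cdh5, Kdr and Tek had a median of 0, whereas endothelial Pecam1 had 4.14 CPM (up to 20.7) and the muscle marker Des 9.13 CPM. Number 1 of the 100 µM groups labelled IL-1β had more detected genes than numbers 2 to 4 at 120 and 360 min, 14634 and 15303, and results that rest on it are given without it too.

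Few of these genes were called against the unstimulated group, a share near that of all genes. Without inhibitor, none of the 32 passed an adjusted p of 0.05 in edgeR's quasi-likelihood test at 15, 30 or 60 min against the unstimulated group. The share of all tested genes called there in either direction was 0.167%, 0.957% and 3.36% under IL-1β and 0.186%, 0.659% and 5.41% under TNF-α. At an unadjusted p under 0.05 the numbers of members were 3, 3 and 4 for IL-1β and 2, 1 and 3 for TNF-α, and DESeq2 called 0 in each.

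At 120 min labelled IL-1β, 5 of 32 passed, a share near the 12.5% of all genes. Hmgcs1, the synthase that opens the committed route to mevalonate, had 183, 202, 209 and 190 CPM without stimulus and 260, 214, 256 and 292 CPM at 120 min, so that the groups did not overlap (log2 change 0.38, SE 0.127, adjusted p = 0.0278). Hsd17b7, a ketoreductase of C4 demethylation, had 51.2, 51.9, 64 and 52.4 CPM without stimulus and 80.3, 65.6, 85.2 and 90 CPM at 120 min (0.55, SE 0.136, adjusted p = 0.00158). Both genes, Idi1 (0.52) and Sc5d (0.36) rose, and the stearoyl-CoA desaturase Scd2 fell (-0.22). The count was 2, 3, 2 and 2 without library number 1, 2, 3 or 4, and every one of the 5 calls was lost in at least 1 of these fits.

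At 360 min labelled IL-1β, 7 of 32 passed, close to the 21.7% of all genes. Hsd17b7 (0.49, adjusted p = 0.00505) and Sc5d, the sterol C5-desaturase (0.44, adjusted p = 0.000205), were higher than in unstimulated cells. Ebp, the isomerase that moves the sterol double bond, fell from 201, 253, 196 and 207 CPM to 131, 133, 166 and 165 CPM, without overlap (-0.53, SE 0.105, adjusted p = 2.83e-05). Dhcr7, which makes cholesterol from its last precursor, fell as well (-0.60, adjusted p = 0.0202), as did the mevalonate enzymes Mvk (-0.50) and Mvd (-0.51) and Scd2 (-0.27). The count was 3 without library number 2. Mvk was lost without number 2, 3 or 4, Mvd without 1, 2 or 3, Dhcr7 without 1 or 2 and Scd2 without 2, while Hsd17b7, Ebp and Sc5d passed in all 11 alternative fits. Of all genes called, the share that was higher depended on the scaling, 65.2% with TMM and 54.6% with RLE factors (those of DESeq2) at 120 min and 56.6% and 42.7% at 360 min under IL-1β, and 64.1% and 50.8%, and 66.8% and 49.2%, under TNF-α.

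At 120 min labelled TNF-α, 6 of 32 passed, a share near the 14.2% of all genes. The groups did not overlap for any of the 6, but overlap was not counted over all genes. Hmgcs1 (0.41, adjusted p = 0.0172) and Sc5d (0.40, adjusted p = 0.00154) were higher. Ebp (-0.46, adjusted p = 0.000499), Dhcr7 (-0.65), Elovl6 (-0.58) and Scd2 (-0.39, adjusted p = 3.22e-05) were lower. Ebp and Scd2 passed in all 11 alternative fits, Hmgcs1 was lost without number 1 and with DESeq2, Sc5d without number 2, Dhcr7 without number 3 or 4, and Elovl6 without number 1 or 4. At 360 min labelled TNF-α, Ebp alone passed (-0.37, adjusted p = 0.0178), against 5.42% of all genes, and its call was lost without number 1, 3 or 4. The number of members called was 1 without number 1, where it was not Ebp, 3 without number 2 and 0 without number 3 or 4.

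Other measures also differed from the unstimulated group, and their part in these changes was not tested. The summed fibroblast markers were 9960 to 10500 CPM without stimulus, 9080 to 9810 and 8340 to 8910 CPM at 120 and 360 min of IL-1β, and 9590 to 10100 and 9200 to 9460 CPM at those times of TNF-α. The summed adipocyte list was 119 to 143 CPM without stimulus, 94.1 to 126 and 87.1 to 106 CPM with IL-1β, and 107 to 132 and 88.4 to 127 CPM with TNF-α. The macrophage list was 28.5 to 32 CPM without stimulus, 29.4 to 37.8 and 36.0 to 47.0 CPM with IL-1β, and 31.5 to 40.5 and 36.3 to 46.6 CPM with TNF-α. Mitochondrial transcripts were 0.596% to 0.697% of counts without stimulus, 0.576% to 0.599% and 0.439% to 0.641% with IL-1β, and 0.469% to 0.63% and 0.501% to 0.659% with TNF-α.

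SC-514 at 100 µM lowered most of the set by 360 min. Of the 32 genes, 21 were lower at 100 than at 0 µM under the IL-1β label and 20 under the TNF-α label, while 15.7% and 15.4% of all tested genes were lower. The median log2 change of the 32 was -0.602 and -0.428, beside 0.036 and 0.018 over all tested genes, and 30 and 29 of the 32 estimates were negative. The 2 comparisons share no library. In both, 18 genes were lower, which is 85.7% of those lower under IL-1β and 90.0% of those lower under TNF-α. How many of all tested genes were lower in both was not counted, nor was overlap of groups over all genes. Stard4, Sc5d and Scd1 passed only in the first and Srebf1 and Mvk only in the second. Groups overlapped for Stard4, Pmvk and Fads1 among the genes lower under IL-1β, and for Srebf1, Insig1 and Pmvk among those lower under TNF-α.

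**Figure D1:**
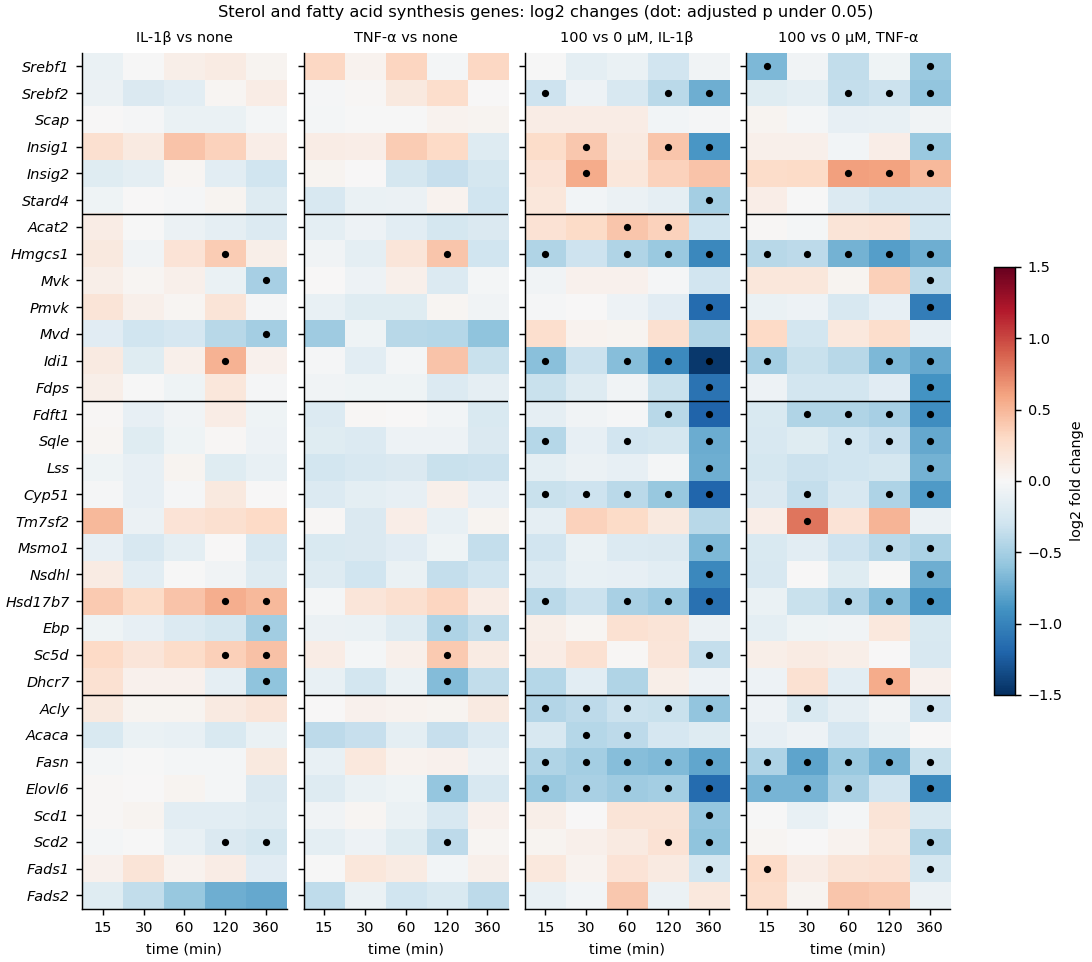
Log2 change of each of the 32 genes (rows, by role) at each time (columns), for either stimulus without inhibitor against no stimulus and for 100 against 0 µM SC-514 in each stimulus, with colour limited to 1.5 in either direction and dots for an adjusted p under 0.05. The 100 µM panels are mostly blue at 360 min, where 21 and 20 genes passed as lower.

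With the scaling factors of DESeq2 (RLE) in place of TMM, the median over all genes at 360 min moved to 0.122 and 0.143, and the median of the 32 was -0.518 and -0.303. The share of all calls that were higher was 46.9% and 42.4% with TMM and 63.6% and 68.7% with RLE factors. It was 46.6% and 40.7% with RLE factors once the 2 shallow libraries were left out. Over the 10 comparisons of 100 with 0 µM this share was 37.9% to 46.9% with TMM and 50.2% to 68.7% with RLE factors. The number of members lower at 360 min was 20 and 17 with RLE factors, of 11.6% and 10.2% of all genes, and 18 and 14 with DESeq2, of 9.82% and 8.71%. Without number 1 of the 100 µM groups labelled IL-1β it was 20 and 19. No member's call turned its direction in any alternative fit.

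Other measures moved with the inhibitor at 360 min. Of 10 fibroblast markers, 4 were lower at 100 µM under IL-1β and 9 under TNF-α, beside 15.7% and 15.4% of all genes. Their summed level was 8340 to 8910 CPM at 0 µM and 7540 to 8750 CPM at 100 µM under IL-1β, and 9200 to 9460 and 7010 to 7640 CPM under TNF-α. The summed macrophage list was 36.0 to 47.0 and 6.62 to 32.2 CPM under IL-1β and 36.3 to 46.6 and 13.7 to 17.0 CPM under TNF-α. Of this list Cd14, which fibroblasts also make, was lower at 100 µM (log2 change -2.34 and -1.80). Over all libraries Adgre1 had a median of 0 and reached 2.61 CPM. The highest levels of Ptprc, Cd68, Csf1r and Itgam were 7.83, 10.7, 7.64 and 4.08 CPM. The summed adipocyte list was 87.1 to 106 and 91.7 to 152 CPM under IL-1β and 88.4 to 127 and 83.5 to 98.9 CPM under TNF-α, most of it Lpl. Mitochondrial transcripts, a sign of RNA quality, were 0.439% to 0.641% and 0.621% to 0.758% of counts under IL-1β and 0.501% to 0.659% and 0.574% to 0.703% under TNF-α. The part of these measures in the fall of the synthesis genes was not tested.

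Of the 6 genes of the sterol-sensing machinery, 3 were lower at 360 min under either stimulus. Srebf2 (chromosome 15, 82147181 to 82205379), which encodes SREBP2 and is itself an SREBP target, had 180, 179, 154 and 156 CPM at 0 µM and 94.8, 100, 108 and 99.4 CPM at 100 µM under IL-1β. In the TNF-α groups it had 151, 171, 149 and 148 CPM against 113, 106, 106 and 84.4 CPM. All 4 libraries at 100 µM were below all 4 at 0 µM under each label, with log2 changes of -0.73 (SE 0.11, adjusted p = 1.44e-08) and -0.59 (SE 0.104, adjusted p = 1.28e-06), and both calls held in all 11 alternative fits. The 0 µM libraries stood near the unstimulated ones (146, 156, 147 and 169 CPM).

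Insig1, an SREBP target that encodes an anchor holding SCAP in the endoplasmic reticulum, had 85.4, 81.6, 86.2 and 81.9 CPM at 0 µM and 50.4, 37.7, 48.8 and 45.4 CPM at 100 µM under IL-1β at 360 min (log2 change -0.88, SE 0.174, adjusted p = 2.56e-05). Under TNF-α the 0 µM libraries spread more widely, with 73.3, 98.7, 49.5 and 50.6 CPM, and overlapped the 100 µM libraries at 49.9, 52.6, 34.5 and 47.2 CPM (-0.56, SE 0.167, adjusted p = 0.00636). That call was lost without library number 1 or number 2. Insig2, the other anchor, went the opposite way under TNF-α, from 27.4, 29.2, 26.2 and 24.8 CPM to 37.2, 46.8, 32.5 and 34.4 CPM without overlap (0.49, SE 0.17, adjusted p = 0.0224), and that call too was lost without number 1 or number 2. Under IL-1β its libraries also did not overlap, at 29.8, 27.2, 22.6 and 25.9 against 32.2, 32.5, 39.5 and 37.8 CPM, but the estimate of 0.43 had an adjusted p of 0.066.

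Srebf1, which encodes SREBP1, was lower under TNF-α only, with 35.5, 26.2, 39.8 and 43 CPM against 22.9, 21.9, 27.9 and 25.5 CPM (-0.56, SE 0.164, adjusted p = 0.0053), and the call was lost without number 4 and with DESeq2. Under IL-1β its estimate was -0.05 (adjusted p = 0.868), and the difference between the stimuli did not pass (adjusted p = 0.298). Stard4, a carrier of cholesterol between membranes, was lower under IL-1β (-0.51, adjusted p = 0.00564), a call lost without number 4 and with DESeq2. Scap, the escort itself, had log2 changes of -0.01 and -0.06 (adjusted p = 0.935 and 0.689).

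Among the 7 genes of the mevalonate and isoprenoid steps, 4 were lower under IL-1β and 5 under TNF-α, and the median change was -0.962 and -0.733. Idi1 (chromosome 13, 8885501 to 8892451), the isomerase that interconverts the 2 five-carbon isoprenoid units, had the largest fall of the 32 genes under IL-1β. Its libraries read 136, 122, 139 and 160 CPM at 0 µM and 49.6, 52.7, 53 and 48.3 CPM at 100 µM, a mean of 139 ± 15.5 (SD, n = 4) against 50.9 ± 2.32 CPM. The fitted difference was 2.73-fold (log2 change -1.45, SE 0.186, adjusted p = 1.44e-10). Under TNF-α the libraries read 95.9, 142, 91.3 and 94.5 CPM against 65.7, 66.7, 62.9 and 52.8 CPM (-0.77, SE 0.174, adjusted p = 0.00026). Neither pair of groups overlapped, and in the 0 µM group labelled TNF-α library number 2 (142 CPM) stood apart from the others (91.3 to 95.9 CPM).

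Hmgcs1 (chromosome 13, 119690379 to 119708260) had 194, 189, 213 and 237 CPM at 0 µM and 100, 102, 117 and 108 CPM at 100 µM under IL-1β. The TNF-α libraries had 189, 168, 147 and 132 against 102, 116, 81.2 and 83.9 CPM. The log2 changes were -0.96 (SE 0.142, adjusted p = 1.91e-08) and -0.73 (SE 0.14, adjusted p = 1.21e-05), and no library at 100 µM reached the lowest at 0 µM. Unstimulated cells had 183 to 209 CPM.

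Fdps, the farnesyl diphosphate synthase, had 77.9, 72.6, 80.3 and 82.7 CPM at 0 µM and 40, 22.8, 40.4 and 42.6 CPM at 100 µM under IL-1β (-1.10, SE 0.193, adjusted p = 1.63e-06). In the TNF-α groups Fdps had 87.8, 78.6, 64.1 and 58.2 against 46.8, 41.4, 35 and 32.5 CPM (-0.90, SE 0.178, adjusted p = 2.46e-05). Pmvk, the phosphomevalonate kinase, was a low gene with 26.5, 15.7, 24.3 and 34.3 against 8.7, 10.5, 9.25 and 17 CPM under IL-1β and 24.2, 30.2, 30.1 and 14.3 against 8.65, 9.74, 15.2 and 14.1 CPM under TNF-α. Its groups overlapped by 1 library on each side, and the changes of -1.15 (SE 0.264) and -1.04 (SE 0.237) passed in all 11 alternative fits. Mvk, the mevalonate kinase, passed under TNF-α alone (-0.40, adjusted p = 0.0484) and was lost without any 1 of the 4 library numbers. Acat2, which joins the first 2 acetyl groups, had -0.30 and -0.27 (adjusted p = 0.0582 and 0.0818), and Mvd, the decarboxylase, -0.45 and -0.13.

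The 11 genes from squalene to cholesterol gave 8 lower under IL-1β and 7 under TNF-α, with medians of -0.731 and -0.707. Fdft1 (chromosome 14, 63145150 to 63179578), the squalene synthase that commits farnesyl units to sterols, had 138, 114, 121 and 140 CPM at 0 µM and 41.7, 62.3, 59.7 and 60.6 CPM at 100 µM under IL-1β (-1.20, SE 0.159, adjusted p = 4.64e-10). Under TNF-α it had 140, 121, 92.3 and 99.3 against 56.5, 61.9, 54.3 and 65.5 CPM (-0.93, SE 0.149, adjusted p = 1.53e-07). The groups did not overlap under either label. Sqle, the squalene epoxidase, had 217, 195, 193 and 252 against 116, 129, 148 and 120 CPM under IL-1β and 213, 209, 185 and 174 against 122, 122, 95.4 and 118 CPM under TNF-α. Its changes were near each other, -0.74 (SE 0.114, adjusted p = 5.28e-08) and -0.77 (SE 0.111, adjusted p = 5.34e-09).

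Cyp51 (chromosome 5, 4081145 to 4104746), the lanosterol demethylase, had the smallest adjusted p of the set under both labels. It had 292, 276, 269 and 349 CPM at 0 µM and 117, 133, 121 and 149 CPM at 100 µM under IL-1β, a mean of 296.5 ± 35.9 against 129.9 ± 14 CPM (SD, n = 4). The TNF-α libraries had 301, 311, 252 and 224 against 163, 153, 154 and 134 CPM. The changes were -1.19 (SE 0.121, adjusted p = 2.79e-15) and -0.85 (SE 0.113, adjusted p = 4.24e-10), without overlap.

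Hsd17b7 (chromosome 1, 169949535 to 169969241) had 81.3, 73.4, 73.6 and 79.4 CPM at 0 µM and 33.9, 36, 41.2 and 30.3 CPM at 100 µM under IL-1β, and 56.4, 71.5, 57.3 and 52.5 against 33.6, 31.7, 31.4 and 32.5 CPM under TNF-α. The changes were -1.11 (SE 0.154, adjusted p = 7.57e-10) and -0.87 (SE 0.15, adjusted p = 7.65e-07). It is 1 of the 2 members that were above the unstimulated group at 360 min under IL-1β without inhibitor, and with 100 µM all 4 libraries were below the unstimulated range of 51.2 to 64 CPM.

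Other enzymes of the ring's conversion fell under both labels. Nsdhl, a dehydrogenase of C4 demethylation, changed by -0.97 and -0.73 (adjusted p = 1.39e-05 and 0.000446). Lss, the lanosterol synthase, changed by -0.73 and -0.71, and Msmo1, the C4 methyl oxidase, by -0.67 and -0.48, the last of which was lost with DESeq2. Sc5d was lower under IL-1β only (-0.35, adjusted p = 0.00299, lost with DESeq2), with -0.24 (adjusted p = 0.0562) under TNF-α. The reductase Tm7sf2 (-0.41 and -0.09), Ebp (-0.08 and -0.23) and Dhcr7 (-0.07 and 0.06) did not pass. The late enzymes Ebp and Dhcr7, which were lower than in unstimulated cells at 360 min under IL-1β, thus had no further call with the inhibitor.

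Of the 8 genes of fatty acid synthesis and desaturation, 6 were lower under IL-1β and 5 under TNF-α, with medians of -0.588 and -0.291. Elovl6 (chromosome 3, 129532355 to 129638495), which lengthens palmitate, had 42.3, 45.4, 58.6 and 50.1 CPM at 0 µM and 18.3, 19.3, 23.5 and 27.4 CPM at 100 µM under IL-1β (-1.15, SE 0.194, adjusted p = 4.84e-07). Under TNF-α it had 53.2, 46.3, 47.6 and 43.9 against 21.4, 31.2, 21.3 and 25 CPM (-0.95, SE 0.174, adjusted p = 3.77e-06). Its groups did not overlap.

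Fasn (chromosome 11, 120805846 to 120824547), the fatty acid synthase, had 176, 158, 140 and 189 CPM at 0 µM and 85.2, 97.4, 103 and 99.4 CPM at 100 µM under IL-1β (-0.78, SE 0.106, adjusted p = 4.17e-10). Under TNF-α it went from 143, 147, 136 and 140 to 114, 120, 91.3 and 124 CPM (-0.33, SE 0.1, adjusted p = 0.00732), and it was lost without number 3, with RLE factors and with DESeq2. Acly, which supplies cytosolic acetyl-CoA from citrate, had 227, 238, 231 and 263 against 157, 160, 166 and 152 CPM under IL-1β and 225, 238, 233 and 235 against 190, 184, 176 and 198 CPM under TNF-α. Its changes were -0.60 (SE 0.0833, adjusted p = 1.27e-09) and -0.31 (adjusted p = 0.000923, lost with DESeq2).

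Scd2, a desaturase that makes monounsaturated fatty acids, had 474, 425, 469 and 512 CPM at 0 µM and 245, 312, 320 and 359 CPM at 100 µM under IL-1β (-0.61, SE 0.0808, adjusted p = 2.06e-10). The TNF-α libraries had 608, 610, 502 and 581 against 413, 455, 379 and 435 CPM (-0.45, adjusted p = 4.03e-07). Scd1, its close relative, passed under IL-1β (-0.58, adjusted p = 9.39e-06) and not under TNF-α (-0.23, adjusted p = 0.0579). How the authors' counting treated reads shared by the 2 paralogs is not given in the sources used here, nor is the use of strand. The desaturase Fads1 was lower by little (-0.27 in both), and was lost with RLE factors, with DESeq2 and without number 1 under either label, and under IL-1β also without number 3 or 4 and without number 1 of the 100 µM group alone. The carboxylase Acaca (-0.20 and 0.01) did not pass, nor did Fads2 (0.16 and -0.09), which had 1.65 to 6.59 CPM in the 0 and 100 µM libraries at 360 min, near the counting floor.

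**Figure D2:**
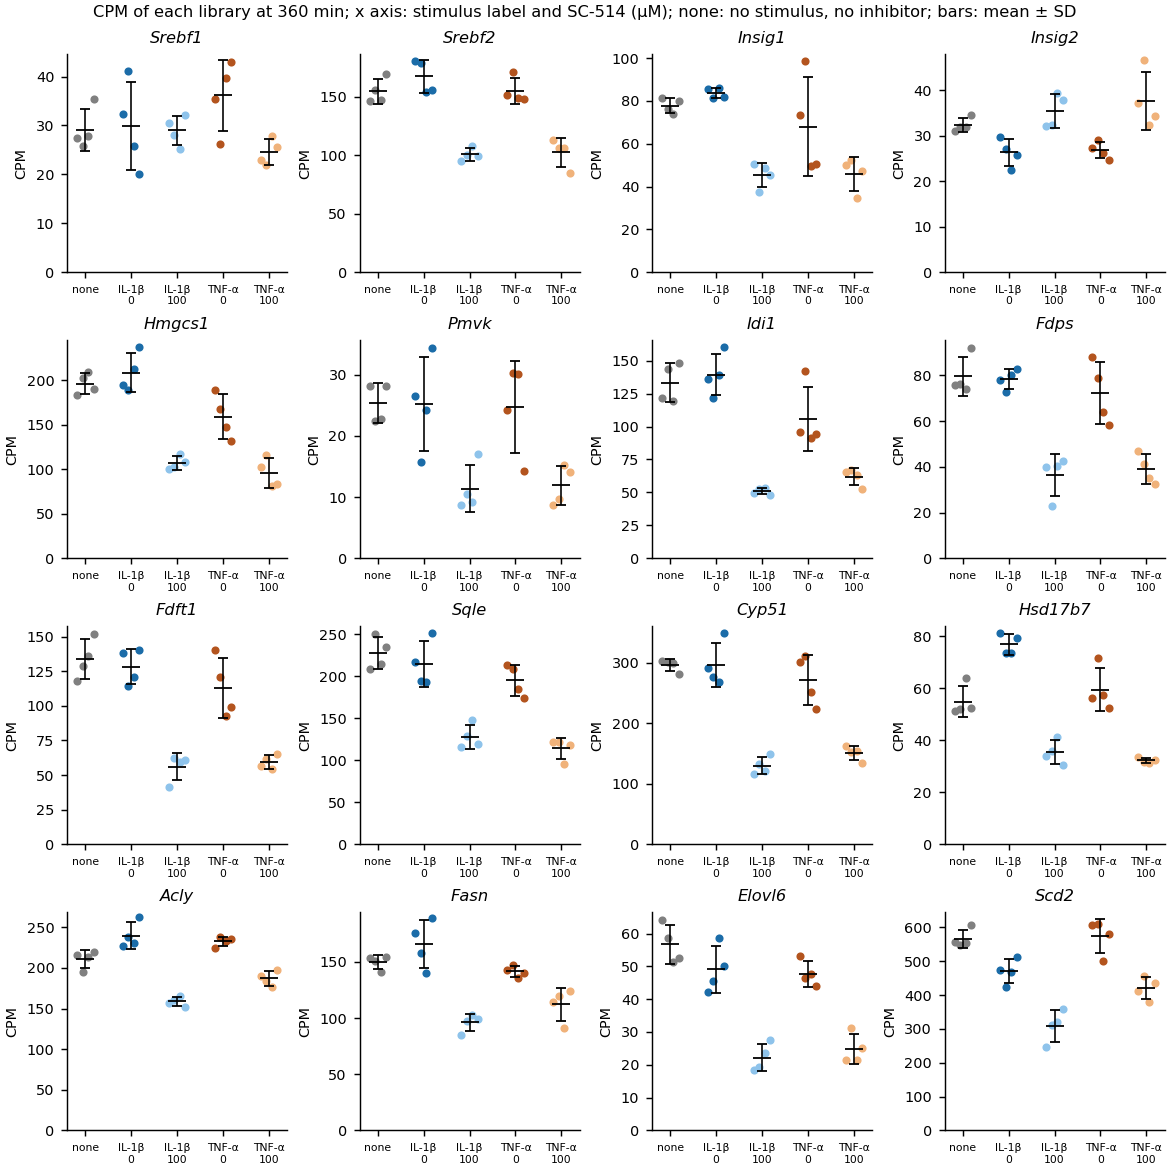
Level in CPM of 16 genes in each library at 360 min (points) with the mean and SD of 4 libraries, for no stimulus and for 0 and 100 µM SC-514 in the groups labelled IL-1β and TNF-α. Groups at 100 µM lie below those at 0 µM for most genes, while Pmvk overlaps under both labels and Insig2 is higher at 100 µM.

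The fall began early for a few of the genes. At 100 against 0 µM, 9, 5, 9 and 9 of the 32 were lower at 15, 30, 60 and 120 min under IL-1β, of 13.5%, 12.5%, 14.4% and 16.2% of all genes. Under TNF-α the numbers were 5, 6, 7 and 9, of 13.2%, 10.8%, 13.6% and 15.0%. Shares of 5 or 6 of 32 are near those backgrounds. The median log2 change of the 32 at these times was -0.136, -0.0615, -0.084 and -0.144 under IL-1β. It was -0.0871, -0.0749, -0.193 and -0.0808 under TNF-α, beside 0.00437 to 0.031 over all tested genes. With RLE factors the median of the 32 was -0.111 to -0.0315 under IL-1β and -0.119 to -0.00514 under TNF-α. The median of all genes was then 0.0359 to 0.0972. The genes lower under both labels were Hmgcs1, Idi1, Fasn and Elovl6 at 15 min, Cyp51, Acly, Fasn and Elovl6 at 30 min, and Hmgcs1, Sqle, Hsd17b7, Fasn and Elovl6 at 60 min. At 120 min they were Srebf2, Hmgcs1, Idi1, Fdft1, Cyp51, Hsd17b7 and Fasn. Over all 10 comparisons, Fasn was lower in 10, Hmgcs1 and Elovl6 in 9, Cyp51 in 8, and Idi1, Hsd17b7 and Acly in 7. At least 1 comparison gave a lower call for 24 of the 32, while Scap, Mvd, Ebp and Fads2 were called in none. Calls over the 10 comparisons were not counted for all tested genes, so these numbers have no background beside them.

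These early counts moved with single library numbers. Under IL-1β they were 4 at 15 min and 5 at 60 min without number 3, and 3 at 30 min without number 1, 3 or 4. Under TNF-α they were 3 at 15 min without number 3, 3 at 30 min without number 1, 3 or 4, and 3 at 60 min without number 3 or 4. DESeq2 gave 6, 2, 7 and 9 under IL-1β, of 8.55%, 8.28%, 10.8% and 12.4% of all genes. Under TNF-α it gave 3, 3, 2 and 7, of 7.25%, 7.15%, 7.9% and 9.97%. Counts of 2 or 3 members are near those backgrounds. At 120 min under IL-1β the count was 7 without number 1 of the 100 µM group, where Fdft1 and Elovl6 were lost.

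At 120 min the inhibitor moved other measures as well. Under IL-1β the summed macrophage list was 29.4 to 37.8 CPM at 0 µM and 12.8 to 19.7 CPM at 100 µM, the adipocyte list 94.1 to 126 and 175 to 240 CPM, and the fibroblast list 9080 to 9810 and 9420 to 11100 CPM. Under TNF-α the macrophage list was 31.5 to 40.5 and 11.4 to 20.4 CPM, the adipocyte list 107 to 132 and 150 to 186 CPM, and the fibroblast list 9590 to 10100 and 8630 to 9430 CPM. Mitochondrial transcripts were 0.576% to 0.599% at 0 µM and 0.636% to 0.862% at 100 µM under IL-1β, and 0.469% to 0.63% and 0.632% to 0.734% under TNF-α, without overlap in either, while at 15, 30 and 60 min the ranges overlapped under both labels. The part of these measures in the changes of the synthesis genes was not tested.

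Fasn showed the fall from the first time point, 15 min after the stimulus, which itself followed 1 hour with SC-514. At 15 min it had 153, 146, 140 and 147 CPM at 0 µM and 112, 102, 113 and 101 CPM at 100 µM under IL-1β (-0.45, SE 0.103, adjusted p = 0.000265). Under TNF-α it had 119, 146, 161 and 132 against 102, 109, 101 and 92.8 CPM (-0.46, SE 0.104, adjusted p = 0.00024). At 30 min the TNF-α libraries were further apart, 186, 170, 166 and 149 against 98.6, 92.4, 91 and 103 CPM (-0.80, SE 0.104, adjusted p = 2.16e-10). The groups did not overlap at 15, 30, 60, 120 or 360 min under either label, and of the 10 Fasn calls only that at 360 min under TNF-α was lost in an alternative fit.

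Hmgcs1 without inhibitor was highest at 120 min. There it had 260, 214, 256 and 292 against 152, 158, 179 and 210 CPM under IL-1β (-0.55, SE 0.132, adjusted p = 0.000488) and 270, 295, 234 and 245 against 152, 170, 132 and 136 CPM under TNF-α (-0.83, SE 0.128, adjusted p = 5.24e-08). With 100 µM its level was thus below the unstimulated range of 183 to 209 CPM in 7 of the 8 libraries. Idi1 had the same order at 120 min, with 196, 145, 208 and 215 against 95.4, 91.5, 83.2 and 123 CPM under IL-1β (-0.96, SE 0.164, adjusted p = 8.56e-07) and 169, 211, 161 and 178 against 93.2, 134, 112 and 107 CPM under TNF-α (-0.67, SE 0.153, adjusted p = 0.000231). These 4 calls held in all 11 alternative fits.

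Elovl6 at 15 min had 40.2, 55, 53.5 and 51.1 CPM at 0 µM and 29.6, 30, 29.8 and 33.1 CPM at 100 µM under TNF-α (-0.70, SE 0.172, adjusted p = 0.000889). Under IL-1β its 0 µM libraries spread from 35.3 to 73.6 CPM and overlapped those at 100 µM, 41.5, 29, 46.5 and 39.3 CPM (-0.56, adjusted p = 0.00585, lost without number 3 or 4). Srebf1 was lower at 15 min under TNF-α, with 28.1, 43.6, 39.2 and 33.8 against 17.8, 20.7, 26.6 and 24.7 CPM (-0.68, SE 0.171, adjusted p = 0.00116), and had no call again until 360 min.

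**Figure D3:**
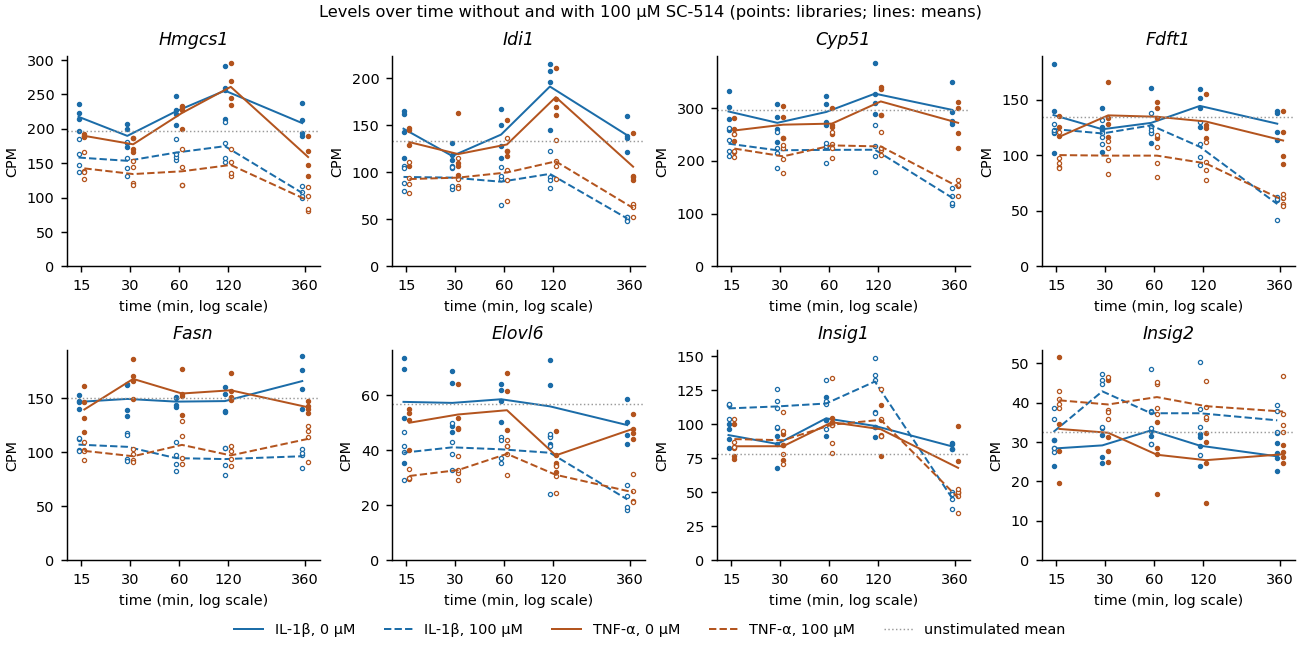
Level in CPM of 8 genes against minutes after the stimulus (log axis), with a point for each library and lines through the group means, solid for 0 and dashed for 100 µM SC-514, and a dotted line for the unstimulated mean. Fasn at 100 µM lies below 0 µM at every time, Idi1 and Hmgcs1 at 0 µM peak at 120 min, and Insig1 at 100 µM lies at or above 0 µM until 120 min under IL-1β and below it at 360 min.

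A few genes were higher with the inhibitor at early times, but higher calls were common among all 10766 tested genes too. At 120 min, 46.9% of 3278 calls under IL-1β and 43.3% of 2856 under TNF-α were higher. A higher call was thus not particular to these members. Insig1 under IL-1β had 97.3, 91.3, 85.9 and 68 CPM at 0 µM and 112, 97.8, 126 and 117 CPM at 100 µM at 30 min (0.40, SE 0.149, adjusted p = 0.037), and 97.8, 90.8, 97.8 and 109 against 108, 136, 133 and 149 CPM at 120 min (0.41, SE 0.144, adjusted p = 0.0209). Both of these calls were lost without number 3 or 4, and the first also without number 1. At 360 min the same gene was lower by 0.88, so its estimate changed sign between 120 and 360 min.

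Insig2 was higher under TNF-α at 60 min, with 26.9, 35.1, 28.4 and 16.7 against 37.2, 44.7, 38.6 and 45.1 CPM (0.62, SE 0.172, adjusted p = 0.00373), and at 120 min, with 32.2, 30.1, 24.7 and 14.6 against 38.8, 45.5, 35.8 and 36.3 CPM (0.60, SE 0.171, adjusted p = 0.00378). The groups did not overlap, and both calls were lost without number 4, the lowest library at 0 µM. It was also higher under IL-1β at 30 min (0.55, adjusted p = 0.011, lost without number 2 or 3). The other higher calls were Acat2 at 60 and 120 min (0.41 and 0.34) and Scd2 at 120 min (0.21) under IL-1β, and Fads1 at 15 min (0.29), Tm7sf2 at 30 min (0.81) and Dhcr7 at 120 min (0.55) under TNF-α. Acat2 at 60 min held in all 11 alternative fits, Tm7sf2 was lost without number 3, and the remaining 4 were lost without number 3 or 4 among others.

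Lower concentrations gave calls at 360 min too. The 25, 50 and 100 µM groups were each set against the same 0 µM libraries, so their values are given side by side and the concentrations were not tested against each other. Under IL-1β, 8 of 32 were lower at 25 µM and 18 at 50 µM, of 3.9% and 8.67% of all genes. Under TNF-α, 4 were lower at 25 µM (Srebf2, Idi1, Cyp51 and Acly) and 10 at 50 µM, of 2.26% and 7.07%. The share of all calls that were higher moved from 32.3% with TMM to 56.9% with RLE factors at 25 µM and from 39.9% to 54.4% at 50 µM under IL-1β, and from 17.3% to 34.8% and from 25.6% to 56.5% under TNF-α.

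Idi1 under IL-1β changed by -0.69 (SE 0.165), -0.86 (SE 0.172) and -1.45 (SE 0.186) at 25, 50 and 100 µM. Under TNF-α its estimates lay close together, -0.68 (SE 0.185), -0.70 (SE 0.181) and -0.77 (SE 0.174). All 6 passed, and at 25 µM the call under IL-1β was lost without number 1 and that under TNF-α without number 1, 3 or 4. Cyp51 changed by -0.56, -0.85 and -1.19 under IL-1β and by -0.49, -0.68 and -0.85 under TNF-α, all 6 passing, with the 25 µM call under TNF-α lost without number 1 or 3. Hsd17b7 passed at all 3 concentrations under IL-1β (-0.66, -0.92 and -1.11), and under TNF-α its 25 µM estimate of -0.40 did not pass (adjusted p = 0.16) while the 50 µM estimate of -0.47 was lost in 7 of 11 alternative fits.

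Fdft1 and Hmgcs1 passed from 50 µM under IL-1β (-0.35, -0.58 and -1.20 for Fdft1, and -0.31, -0.49 and -0.96 for Hmgcs1, whose 50 µM call was lost without number 3) and at 100 µM alone under TNF-α. Fasn under IL-1β gave -0.19, -0.38 and -0.78, the first of which did not pass and the second of which was lost without number 1 or 4. Under TNF-α it gave -0.04, -0.15 and -0.33. Scd2 passed at each concentration under IL-1β (-0.38, -0.56 and -0.61) and at 100 µM alone under TNF-α. The count at 25 µM under TNF-α was 2, 2, 1 and 2 without library number 1, 2, 3 or 4, and that at 50 µM was 4 without number 1, 6 without number 3 and 4 with DESeq2.

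**Figure D4:**
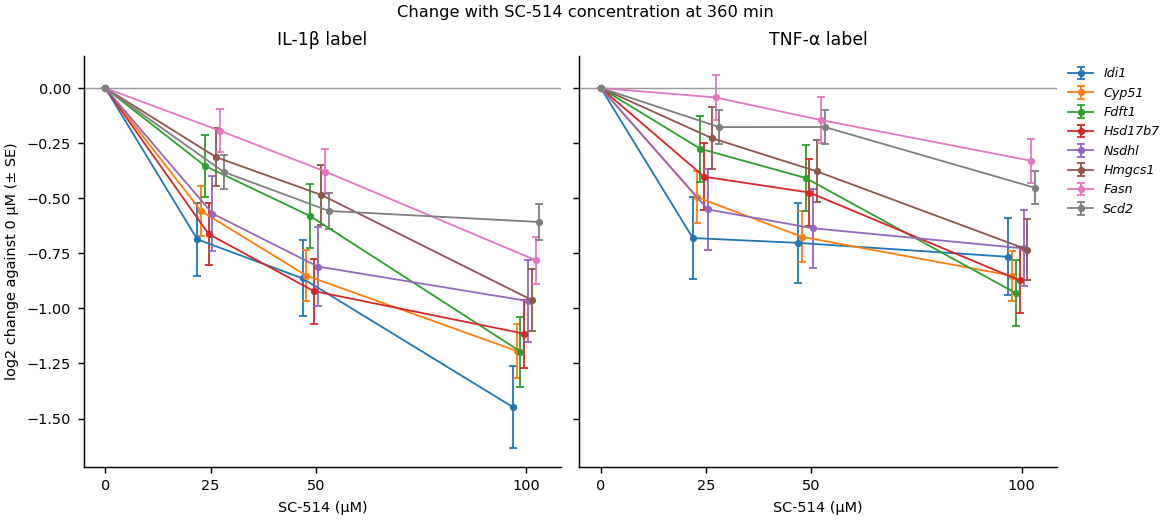
Log2 change ± SE against 0 µM for 8 genes at 360 min, against SC-514 concentration in µM, for the groups labelled IL-1β and TNF-α. Under IL-1β the Idi1 estimates run from -0.69 to -1.45, and under TNF-α from -0.68 to -0.77.

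At 120 min, 6 and 9 of 32 were lower at 25 and 50 µM under IL-1β, of 7.19% and 11.6% of all genes, and 5 and 10 under TNF-α, of 4.79% and 8.18%. Idi1, Cyp51 and Fasn were lower in all 4 of these comparisons. At 25 µM the Cyp51 call under IL-1β was lost without number 1 or 3 and the Fasn call under TNF-α without number 3. At 50 µM the Cyp51 call under TNF-α was lost without number 3. Idi1 changed by -0.81 and -1.02 under IL-1β and by -0.80 and -0.94 under TNF-α. Insig2 was higher under TNF-α at 25 and 50 µM (0.57 and 0.75), and Fads2 (0.97, at its low level) under IL-1β and Fads1 (0.27) under TNF-α were higher at 50 µM. The Fads2 call was lost in 8 alternative fits, among them RLE factors, DESeq2 and leaving out the shallow libraries. The Fads1 call and the Insig2 call at 25 µM were each lost in 5, DESeq2 included. The Insig2 call at 50 µM passed in every alternative fit. Without number 3 the counts at 25 µM were 3 under each label, and at 50 µM under TNF-α the count was 3 without number 3, 5 without number 4 and 10 without the shallow library of that group.

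No gene of the 32 passed a test of the difference between the stimuli in the 100 µM change. At 360 min edgeR called 0 of 32, against 1.98% of all genes, DESeq2 called 0, and 6 had an unadjusted p under 0.05: Srebf1, Idi1, Cyp51, Acly, Fasn and Scd1. The smallest adjusted p was that of Fasn, 0.081, with a difference of -0.45 (SE 0.146, IL-1β minus TNF-α), and Idi1 had -0.68 (SE 0.257, adjusted p = 0.152). The count was 1 without number 2 or number 3. At 120 min edgeR and DESeq2 called 0, against 1.07% of all genes, and Acly alone had an unadjusted p under 0.05. Of all genes called in these tests, 67.8% at 120 min and 72.3% at 360 min had the higher value under IL-1β with TMM, and 54.1% and 57.2% with RLE factors. A p that misses the threshold does not show that the changes were equal, and stimulus cannot be told apart from the library set.

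Without inhibitor the stimuli were compared directly as well. At 120 min edgeR and DESeq2 called 0 of 32, against 1.02% of all genes, with 5 members at an unadjusted p under 0.05, and the count was 1 without number 2. At 360 min 2 of 32 passed, against 9.46% of all genes. Sc5d was higher under IL-1β (0.32, adjusted p = 0.0223), with 166, 163, 147 and 170 CPM against 128, 123, 131 and 137 CPM, and the call was lost without any 1 library number and with DESeq2. Scd2 was lower under IL-1β (-0.29, adjusted p = 0.00489), with 474, 425, 469 and 512 against 608, 610, 502 and 581 CPM, and was lost without number 2. The count was 4 without number 2 and 1 without number 3 or 4.

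Further genes around the routes were followed in 2 lists. Of 12 other synthesis genes and SREBP targets, 4 were lower at 100 µM and 360 min under IL-1β, beside 15.7% of all genes, and 3 under TNF-α, beside 15.4%. Their median log2 change was -0.162 and -0.158. Tmem97, a sterol-regulated membrane protein, fell from 137.7 ± 13.7 to 84.45 ± 2.48 CPM (SD, n = 4) under IL-1β (log2 change -0.70, adjusted p = 1.97e-10) and from 138.5 ± 10.5 to 93.14 ± 9.97 CPM under TNF-α (-0.57, adjusted p = 2.33e-08). Por, the reductase that passes electrons to Cyp51 and Sqle, fell from 257.1 ± 7.44 to 159.8 ± 7.2 CPM (-0.69, adjusted p = 4.27e-09) and from 258.4 ± 22.2 to 158.7 ± 4.83 CPM (-0.70, adjusted p = 3.11e-10). The remaining lower genes, named here because they are few, were Acsl3 under both labels (-0.41 and -0.44) and Mid1ip1 under IL-1β (-0.41), which were lost in 4 to 7 of 11 alternative fits, number 1 of the 100 µM group included for both calls under IL-1β. Elovl5, an elongase of polyunsaturated fatty acids, was higher under both labels (0.73 and 0.54, adjusted p = 6.12e-08 and 2.28e-05). Tmem97, Por and Elovl5 passed at 360 min in all 11 alternative fits.

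The 12 genes that cut SREBPs, degrade their anchors or extract proteins from the endoplasmic reticulum gave 1 lower gene at 360 min under each label, beside 15.7% and 15.4% of all genes. This was Vcp, the extraction ATPase (-0.29, adjusted p = 5.06e-07, and -0.16, adjusted p = 0.00543), whose call under TNF-α was lost without number 2, without the filter, with RLE factors and with DESeq2. Of the 10766 tested genes, 3178 and 2883 were called in either direction at 360 min. Of these calls 46.9% and 42.4% were higher. Rnf139 was higher under both labels (0.52 and 0.61, the second lost without number 3). Mbtps2, a protease that cuts SREBPs, was higher under IL-1β (0.44, lost without number 1 or 3, without number 1 of the 100 µM group alone and without the filter on low counts). Under TNF-α Erlin1 (0.50) and Erlin2 (0.37, lost without number 2, 3 or 4) were higher. At 120 min Rnf145, a ubiquitin ligase, was lower under both labels (-0.45 and -0.85, adjusted p = 0.00968 and 9.02e-07), the first of which was lost without number 2. Nploc4, the partner of Vcp, was higher at 360 min of IL-1β without inhibitor (0.41, adjusted p = 0.000128), as was Vcp (0.35, adjusted p = 1.22e-09).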

How the data were processed

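Raw counts of reads for each gene, made by the authors from TagSeq reads, were taken from the deposited table. The submitters' processing notes name Bowtie2 and GRCm38 (mm10), while the counting tool, its annotation and its strand setting are not named there. Of 22070 gene identifiers, 21858 matched GENCODE M21 symbols on the same build. All 164 columns were mapped to the 41 groups through the labels, and the 4 libraries of each group are its replicates.

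The test was the quasi-likelihood test of edgeR 4.0.16 (R 4.3.3), robust setting, in a single model of the 41 groups with 32 contrasts. It used TMM factors and the 10766 genes kept by filterByExpr. P-values were adjusted within each contrast over all genes tested by the Benjamini-Hochberg method, with a threshold of 0.05. CPM use TMM-scaled library sizes. The fit was run on simulated counts with the same spread for all genes and few of them changed. That run does not bear on the differences between scalings given above. Alternatives were DESeq2 1.42.0, RLE factors with and without the 2 shallow libraries, no filter on low counts, a replicate block, and leaving out each library number, the shallow libraries or number 1 of the 100 µM groups labelled IL-1β.

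The 32 genes and all lists were chosen with earlier results of these data known. Values of every library are given for the 4 genes of each role group with the smallest adjusted p over the 100 µM contrasts and the stimulus contrasts at 120 and 360 min. From each other list, up to 3 genes are named by the same rank. The library values of Ebp and Sc5d, and the names Acsl3, Mid1ip1, Rnf139, Mbtps2, Erlin1, Erlin2, Lpcat3, Plin2, Hadhb and Acadm, were added after their values were seen.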

Additional observations from a re-analysis of the deposited data

Results flagged for a closer look

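In 8 of 80 sets of 4 libraries (10.0%), 1 library stood far from the other 3. The sets are the 16 genes given by library in the 5 groups of unstimulated cells and of 0 and 100 µM at 360 min, and chance flags about 1 in 20 such groups. In the 0 µM group labelled TNF-α, number 2 was high for Srebf2 (171 CPM, others 148 to 151) and Idi1 (142 CPM, others 91.3 to 95.9). In unstimulated cells, number 4 was high for Fdps (91.9 CPM, others 74.1 to 76.1) and Scd2 (606 CPM, others 548 to 556), and number 3 for Hsd17b7 (64 CPM, others 51.2 to 52.4). At 100 µM, Fdps was low in number 2 (22.8 CPM, others 40 to 42.6) and Fdft1 in number 1 (41.7 CPM, others 59.7 to 62.3) under IL-1β, and Sqle in number 3 (95.4 CPM, others 118 to 122) under TNF-α. The 360 min calls of Srebf2, Idi1, Fdps, Scd2, Hsd17b7, Fdft1 and Sqle at 100 against 0 µM passed in all 11 alternative fits, those without each library number among them.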

How the results depend on the processing

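Of 207 calls of members over the contrasts, 102 passed in all 11 alternative fits, 105 were lost in at least 1 and 0 changed direction. Of the 42 at 360 min with 100 µM, 31 passed in all. Without the filter on low counts, the number of members called went from 0 to 1 for IL-1β at 60 min and from 1 to 4 for TNF-α at 360 min against no stimulus, from 0 to 1 and 2 to 4 for IL-1β against TNF-α at 120 and 360 min, and from 0 to 1 for the difference in the 100 µM change at 360 min. With RLE factors it went from 0 to 1 and from 1 to 2 for TNF-α at 60 and 360 min against no stimulus, from 7 to 4 for 100 µM at 60 min under TNF-α, and from 0 to 1 for the difference at 360 min. Without number 1 of the 100 µM groups labelled IL-1β, TNF-α at 360 min against no stimulus went from 1 to 2. With DESeq2 the lower calls at 100 µM went from 5 to 2 at 30 min under IL-1β and from 5 to 3, 6 to 3 and 7 to 2 at 15, 30 and 60 min under TNF-α, those at 360 min from 8 to 5 at 25 µM under IL-1β and from 10 to 4 at 50 µM under TNF-α, and IL-1β against TNF-α at 360 min from 2 to 1. The cause was not tested.

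Leaving out each library number gave 2 to 3 calls for IL-1β at 120 min (5 with all), 3 to 7 at 360 min (7) and 0 to 3 for TNF-α at 360 min (1), each against no stimulus. For lower calls at 100 µM it gave 4 to 10 (9), 3 to 4 (5) and 5 to 9 (9) at 15, 30 and 60 min under IL-1β and 3 to 5 (5), 3 to 4 (6) and 3 to 6 (7) under TNF-α. At 25 µM it gave 3 to 7 (6) at 120 min under IL-1β, and 3 to 5 (5) at 120 min and 1 to 2 (4) at 360 min under TNF-α. At 50 µM under TNF-α it gave 3 to 9 (10) and 4 to 8 (10). IL-1β against TNF-α gave 0 to 1 (0) at 120 min and 1 to 4 (2) at 360 min, and the difference in the 100 µM change at 360 min 0 to 1 (0). At 100 µM and 360 min the range was 19 to 22 (21) and 17 to 19 (20). These fits have fewer libraries.

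Library numbers are shared between groups, and in 0 of 30 comparisons did every same-numbered pair correlate above 0.1 (mean 0.0373, against -0.0124 for other pairs). Among 4 candidates each, 56 of 119 libraries correlated best with their own number. These matches were 0 to 2 of 4 in comparisons against no stimulus and 2 to 3 of 4 in those of 100 with 0 µM. Library number may thus mark a shared factor in the latter, which was not tested. With the replicate block, 22 and 21 members were lower at 360 min with 100 µM, and 1 call was lost in all.

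At totals of 928906 to 2469454 counts, Fads2 lies near the floor of 3 counts, and depth limits what can be said of it.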

Other observations

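Genes that export, store or burn lipids were also counted at 100 against 0 µM. Of 9 tested genes of cholesterol export and storage, 1 was lower at 360 min under each label, beside 15.7% and 15.4% of all genes. These were Lpcat3 under IL-1β (-0.37, lost in 7 of 11 alternative fits, among them without number 1 of the 100 µM group) and Soat1, which esterifies cholesterol for storage, under TNF-α (-0.47, edgeR adjusted p = 1.21e-05). Mylip, a ligase that degrades lipoprotein receptors and is an LXR target, was higher at 120 min, from 10.92 ± 3.53 to 31.63 ± 7.97 CPM (SD, n = 4) under IL-1β (log2 change 1.53) and from 10.09 ± 3.84 to 33.07 ± 3.76 CPM under TNF-α (1.68), with edgeR adjusted p = 1.72e-07 and 3.2e-09. Nr1h2, which encodes an LXR, was higher at 360 min under TNF-α (0.60, edgeR adjusted p = 4.91e-05) and lower at 120 min under IL-1β (-0.41, edgeR adjusted p = 0.0126, lost without number 2 or 3 and with DESeq2).

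Of 12 tested genes of fatty acid oxidation and lipid droplets, 2 were lower at 360 min under each label, a share near the 15.7% and 15.4% of all genes. These were Angptl4, a secreted inhibitor of lipoprotein lipase (-1.15 and -1.04), and Plin2, a coat protein of lipid droplets (-0.93 and -0.95), and all 4 calls passed in all 11 alternative fits. At 360 min of IL-1β without inhibitor, Angptl4 (1.63, edgeR adjusted p = 4.07e-19) and Ppard (1.25, edgeR adjusted p = 4.17e-11) were higher than in unstimulated cells. Cpt1a, which admits fatty acids to mitochondria, was lower there (-1.12, edgeR adjusted p = 1.87e-12). With 100 µM under IL-1β, Cpt1a (0.52, lost without number 2) and Hadhb (0.57) were higher than at 0 µM, and under TNF-α Acadm was higher (0.47, lost without number 2 or 3).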
